A study of Mus musculus with 24 samples.

Results

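The genes described here encode enzymes that methylate lysine 9 of histone H3 (H3K9) and 1 zinc finger partner of such an enzyme, measured as carriers of the dimethyl mark H3K9me2 in the mouse heart. The 7 genes are Ehmt2, Ehmt1, Wiz, Setdb1, Prdm2, Suv39h2 and Setdb2. Every deposited region that overlapped one of them, or lay within 2 kb of one by RefSeq coordinates of mm10, was taken, whatever its counts. That gave 19 of the 53386 listed regions, which belonged to 5 of the 7 genes.

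Chromatin came from cardiac biopsies of 6 C57BL6 mice aged 12 months, 3 female and 3 male. All 6 had undergone ischemic preconditioning, in which the left coronary artery was closed reversibly for 5 min and reopened for 5 min in 4 cycles, followed by 30 min of reperfusion. The 4 groups were H3K9me2 chromatin immunoprecipitation (ChIP) from the area at risk (AAR), H3K9me2 ChIP from the remote myocardium (RM), input DNA from the AAR and input DNA from the RM. Each mouse gave 1 library to each group, so every group held 6 libraries and both biopsies of a heart had gone through the procedure. Sham-operated hearts were not analysed here. A biopsy holds several cell types, and a lower mark per cell and fewer cells that carry it cannot be told apart.

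Ehmt2, also called G9a, and Ehmt1, also called GLP, form a heterodimer that writes most mono- and dimethylation of H3K9 in euchromatin, and Wiz is a zinc finger protein of that complex with no methyltransferase activity of its own. Setdb1, Suv39h2 and the related Setdb2 are SET domain proteins linked to H3K9 trimethylation at silenced repeats and heterochromatin, and Prdm2 is a PR domain protein with reported H3K9 methyltransferase activity. H3K9me2 forms broad domains over genes with little transcription and at the nuclear periphery.

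The library totals over listed regions ran between 416683 and 1196368 read counts in AAR H3K9me2 and between 443261 and 981763 in RM H3K9me2. In the inputs they ran between 1286383 and 2478668 in the AAR and between 1405503 and 1770520 in the RM. A tested region of these genes therefore held between 2 and 52 reads in an H3K9me2 library and between 10 and 118 in an input library. Levels are given as CPM, a region's count scaled to a library total of 1000000 reads in listed regions. A negative log2 fold change over input means that a region took a smaller share of listed reads in the ChIP than in the input, on a scale on which the median listed region lay at 0.01 in both biopsies. It does not measure whether the mark was present.

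The regions were unevenly spread over the genes. Ehmt2 (chr17:34898463-34914073, plus strand, mm10) had 3 regions that covered 32.7% of the gene and its flanks. Wiz (chr17:32354047-32389501, minus strand) had 6 regions covering 28.6%, and Prdm2 (chr4:143107391-143212769) had 7 regions covering 17.0%. Setdb1 (chr3:95323525-95357202, minus strand) had 2 regions covering 8.16%. Ehmt1 (chr2:24790769-24919643, minus strand), the longest of the 7 genes at 129 kb, had 1 region covering 1.35%. No listed region reached Suv39h2 (chr2:3455815-3474986, minus strand) or Setdb2 (chr14:59402009-59440880, minus strand). Their nearest listed regions lay 36.0 kb from Suv39h2 and 58.6 kb from Setdb2.

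Regions are numbered within each gene by rising coordinate, and exons and introns were not annotated. The single Ehmt1 region (chr2:24917800-24919599) ended 44 bases inside the annotated start of the gene. Setdb1 region 2 (chr3:95356000-95357399) spanned the start of Setdb1. Ehmt2 region 2 (chr17:34906400-34908999) lay in the gene body, and Ehmt2 region 3 (chr17:34912600-34916599) crossed the 3′ end of Ehmt2 into Slc44a4. Wiz region 1 (chr17:32353600-32357599) crossed the 3′ end of Wiz, and Wiz regions 2 to 5 lay within the gene. A flank alone tied 3 regions to their gene. They were Ehmt2 region 1, which overlapped Zbtb12 1664 bases upstream, Wiz region 6, which overlapped Rasal3 1899 bases upstream, and Setdb1 region 1, which overlapped Cers2 326 bases beyond the 3′ end of Setdb1. Reads of the 4 regions shared with a neighbouring gene cannot be assigned to one gene.

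RefSeq promoter windows on GRCm38.p6, each reaching 250 bases before and 50 after an annotated start, matched 6 of the 7 genes with 10 windows, and none matched Prdm2. Capitals mark the dinucleotide CG, the site of DNA methylation in mammals, which reads the same on both strands. Of 32851 such windows 94.6% held at least 1 CG, with a median of 7. The windows shown are, for Ehmt1, Setdb1 and Wiz, the window nearest to a listed region of the gene, and the first of 2 Ehmt2 windows for contrast.
Ehmt1 start, chr2:24919560-24919859, minus strand: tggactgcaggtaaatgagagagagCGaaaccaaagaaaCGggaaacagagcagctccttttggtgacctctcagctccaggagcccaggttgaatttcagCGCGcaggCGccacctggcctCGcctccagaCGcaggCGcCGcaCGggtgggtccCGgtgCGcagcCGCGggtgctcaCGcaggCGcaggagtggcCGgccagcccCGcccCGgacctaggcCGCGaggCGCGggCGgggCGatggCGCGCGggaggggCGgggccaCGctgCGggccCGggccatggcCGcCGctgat
Setdb1 start, chr3:95357153-95357452, minus strand: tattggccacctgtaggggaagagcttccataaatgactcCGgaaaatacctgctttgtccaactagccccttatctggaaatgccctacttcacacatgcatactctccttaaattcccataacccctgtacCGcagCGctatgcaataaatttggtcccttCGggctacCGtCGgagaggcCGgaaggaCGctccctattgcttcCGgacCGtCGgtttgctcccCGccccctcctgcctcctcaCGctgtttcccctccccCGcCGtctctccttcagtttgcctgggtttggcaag
Wiz start nearest to region 3, chr17:32364414-32364713, minus strand: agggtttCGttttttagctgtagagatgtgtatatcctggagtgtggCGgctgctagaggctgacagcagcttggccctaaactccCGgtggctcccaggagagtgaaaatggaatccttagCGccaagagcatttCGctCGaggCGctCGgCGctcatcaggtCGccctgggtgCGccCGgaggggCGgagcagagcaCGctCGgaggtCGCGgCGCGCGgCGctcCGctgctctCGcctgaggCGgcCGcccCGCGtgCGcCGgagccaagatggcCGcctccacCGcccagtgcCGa
Ehmt2 first start, chr17:34898224-34898523, plus strand: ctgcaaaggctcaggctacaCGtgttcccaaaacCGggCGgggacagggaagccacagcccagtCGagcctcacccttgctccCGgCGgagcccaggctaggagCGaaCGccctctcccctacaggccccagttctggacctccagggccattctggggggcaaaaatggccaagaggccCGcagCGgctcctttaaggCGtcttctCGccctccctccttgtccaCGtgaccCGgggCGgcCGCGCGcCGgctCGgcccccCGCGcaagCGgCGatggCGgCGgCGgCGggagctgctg
The Ehmt1 window held 34 CG, a number that 7.7% of all windows reached, and shared 40 bases with Ehmt1 region 1. The Setdb1 window held 15 CG, reached by 34.6% of windows, and shared 247 bases with Setdb1 region 2. One of the 4 Wiz windows held 32 CG, reached by 9.5%, and lay 15 bases from Wiz region 3. The other Wiz windows, not shown, held 13, 3 and 22 CG, and the one with 13 CG lay 174 bases from Wiz region 4. The first Ehmt2 window held 28 CG, reached by 14.2%, and its nearest listed region lay 1425 bases away. The second Ehmt2 window, not shown, held 40 CG, reached by 3.9%, and lay 1921 bases from its nearest region. For the genes with no listed region, the Suv39h2 window held 33 CG and the Setdb2 window 29 CG, reached by 8.6% and 12.9% of windows. These counts describe the letters of the windows only.

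H3K9me2 was first set against input within the AAR, to ask where the immunoprecipitate departed from the DNA it was drawn from. Of the 19 regions 17 passed the filter on low counts. Ehmt2 region 1 and Setdb1 region 2 held between 0 and 16 reads in any library and did not pass. Without the filter, Ehmt2 region 1 was at a log2 fold change of -0.25 ± 0.52 in the AAR and -1.03 ± 0.53 in the RM (SE). Setdb1 region 2, the only region over Setdb1 itself, was at -1.34 ± 0.53 and -0.51 ± 0.49. Neither region had an edgeR adjusted p under 0.05 in either biopsy. In edgeR's quasi-likelihood test with Benjamini-Hochberg adjustment over all 40928 tested regions, 5 of the 17 regions were lower in H3K9me2 than in input at an adjusted p under 0.05 and 0 were higher. Those 5 are 29.4% of the 17, and over all tested regions 12.3% were lower and 11.4% higher. The 5 regions lay in Ehmt2, Wiz and Prdm2. The median log2 fold change of the 17 was -0.32 and 15 were below 0, against a median of 0.01 over all regions.

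The region of smallest p among the 17 in the AAR was in Ehmt2, a catalytic subunit of the G9a-GLP complex. Ehmt2 region 2 had 12.6, 15.9 and 20.0 CPM as the lowest, median and highest value in AAR H3K9me2, against 21.6, 27.2 and 31.1 CPM in AAR input. The groups did not overlap, and H3K9me2 was lower than input in 6 of 6 mice. The log2 fold change was -0.73 ± 0.19 (SE, edgeR adjusted p = 0.00431), between means of 16.2 ± 3.05 CPM in H3K9me2 and 27.0 ± 3.35 CPM in input (SD, n = 6 each). At the 3′ end of the gene, Ehmt2 region 3 averaged 26.2 ± 3.88 CPM in H3K9me2 and 38.7 ± 4.97 CPM in input, a log2 fold change of -0.58 ± 0.16 (SE, edgeR adjusted p = 0.00615). It was lower in 6 of 6 mice, although its highest H3K9me2 library, at 31.8 CPM, passed the lowest input library, at 31.3 CPM.

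In Ehmt1, the partner of Ehmt2, the same direction did not pass in the AAR. Ehmt1 region 1 had 9.19, 10.9 and 18.0 CPM as the lowest, median and highest value in AAR H3K9me2, against 11.5, 19.4 and 20.8 CPM in AAR input. H3K9me2 was lower in 6 of 6 mice but the groups overlapped, with the inputs of mice 22 and 30 at 11.5 and 13.2 CPM, inside the range of the ChIP libraries. The log2 fold change was -0.56 ± 0.25 (SE, edgeR adjusted p = 0.0901).

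Within Wiz, which joins the Ehmt2-Ehmt1 pair, 2 of 6 regions passed in the AAR. Wiz region 2 had 2.97, 9.68 and 20.1 CPM as the lowest, median and highest value in AAR H3K9me2, against 14.9, 16.8 and 27.0 CPM in AAR input. The AAR H3K9me2 libraries were widely spread, and the low ones came from mice 17, 19 and 30, at 8.36, 5.4 and 2.97 CPM. The log2 fold change was -0.75 ± 0.26 (SE, edgeR adjusted p = 0.0307), with 5 of 6 mice lower. Wiz region 3 averaged 7.85 ± 6.0 CPM in H3K9me2 and 16.2 ± 3.64 CPM in input (SD, n = 6 each), a log2 fold change of -0.80 ± 0.29 (SE, edgeR adjusted p = 0.0344), again with 5 of 6 mice lower. The groups overlapped in both regions. The call for Wiz region 2 was lost without mouse 17, 19, 27 or 30 (edgeR adjusted p = 0.101, 0.0823, 0.0645 and 0.106) and that for Wiz region 3 without mouse 17, 19, 22 or 30 (0.136, 0.0889, 0.0563 and 0.164), and DESeq2 gave adjusted p = 0.0711 and 0.0717.

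Wiz region 1, at the 3′ end of the gene, averaged 26.8 ± 9.33 CPM in AAR H3K9me2 and 36.9 ± 2.49 CPM in AAR input and did not pass (log2 fold change -0.42 ± 0.16 SE, edgeR adjusted p = 0.0544). Its edgeR adjusted p was 0.0410 with the mouse as a block, 0.0470 in the fit over all 24 libraries, and 0.0406 and 0.0307 without mouse 27 and mouse 30. The other Wiz regions had log2 fold changes of -0.05 in region 4, -0.18 in region 5 and 0.27 in region 6, and none of these passed. Region 6, in Rasal3 upstream of Wiz, and Prdm2 region 4 were the only tested regions of the 17 with a value above 0 in the AAR.

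Of the remaining enzymes, only Prdm2 had a region that passed in the AAR. Prdm2 region 3 (chr4:143116600-143120999) had 21.6, 30.0 and 38.0 CPM as the lowest, median and highest value in AAR H3K9me2, against 38.1, 41.5 and 43.3 CPM in AAR input. The groups did not overlap, though the highest ChIP library and the lowest input lay next to each other, and 6 of 6 mice were lower. The log2 fold change was -0.44 ± 0.15 (SE, edgeR adjusted p = 0.0242). The call was lost without mouse 17, 19 or 22 (edgeR adjusted p = 0.0689, 0.0640 and 0.0505) and in DESeq2 (adjusted p = 0.0653). The 6 other Prdm2 regions lay between -0.37 and 0.16 and did not pass. Setdb1 region 1 had 21.6, 27.4 and 43.5 CPM as the lowest, median and highest value in AAR H3K9me2, against 32.4, 38.7 and 47.6 CPM in AAR input. It was lower in 6 of 6 mice with overlapping groups and did not pass (log2 fold change -0.32 ± 0.16 SE, edgeR adjusted p = 0.128). In 2 of the 17 regions, Ehmt2 region 2 and Prdm2 region 3, H3K9me2 lay below input with no overlap, against 5.73% of all tested regions.

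The same comparison in the RM gave 6 of 17 regions lower in H3K9me2 than in input and 0 higher. Those 6 are 35.3% of the 17, against 19.9% lower and 20.6% higher over the 40767 regions tested in the RM. The median of the 17 was -0.13 and 13 were below 0, against a median of 0.01 over all regions. The 6 regions lay in Ehmt2, Ehmt1, Wiz and the flank of Setdb1. In 3 of them, Ehmt1 region 1, Ehmt2 region 3 and Wiz region 1, the groups did not overlap, against 8.46% of all tested regions.

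The lowest log2 fold change of the 17 regions in the RM was at the Ehmt1 start. Ehmt1 region 1 had 4.51, 11.7 and 14.6 CPM as the lowest, median and highest value in RM H3K9me2, against 19.3, 21.4 and 24.8 CPM in RM input. All 6 input libraries were above all 6 ChIP libraries, which held between 2 and 14 reads each. The log2 fold change was -0.96 ± 0.22 (SE, edgeR adjusted p = 0.000185), between means of 10.7 ± 4.02 CPM in H3K9me2 and 21.9 ± 2.06 CPM in input (SD, n = 6 each).

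Both tested Ehmt2 regions were lower in the RM as well. Ehmt2 region 3 had 17.0, 21.0 and 27.4 CPM as the lowest, median and highest value in RM H3K9me2, against 30.9, 35.4 and 41.9 CPM in RM input. The groups did not overlap, and the log2 fold change was -0.74 ± 0.17 (SE, edgeR adjusted p = 1.05e-04). Ehmt2 region 2 averaged 17.7 ± 3.10 CPM in H3K9me2 and 26.2 ± 5.33 CPM in input (SD, n = 6 each), with 5 of 6 mice lower. Its log2 fold change was -0.57 ± 0.19 (SE, edgeR adjusted p = 0.00979). This call was lost without mouse 19 (adjusted p = 0.0675, edgeR) or mouse 30 (adjusted p = 0.0520, edgeR).

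Wiz region 1 was the region of smallest p among the 17 in the RM. It had 11.2, 23.1 and 27.7 CPM as the lowest, median and highest value in RM H3K9me2, against 31.3, 36.0 and 50.5 CPM in RM input. The groups did not overlap, and the log2 fold change was -0.84 ± 0.17 (SE, edgeR adjusted p = 1.39e-05). Wiz region 3, whose nearest Wiz start is printed above, averaged 11.6 ± 2.92 CPM in H3K9me2 and 18.5 ± 4.72 CPM in input (SD, n = 6 each). Its log2 fold change was -0.62 ± 0.23 (SE, edgeR adjusted p = 0.0216), with 5 of 6 mice lower. Without mouse 19, 23 or 27 it did not pass (edgeR adjusted p = 0.0754, 0.110 and 0.111), nor in DESeq2 (adjusted p = 0.0599). Wiz region 2 did not pass in the RM, at -0.34 ± 0.21 (SE, edgeR adjusted p = 0.180), and regions 4, 5 and 6 were at 0.03, 0.33 and 0.34.

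Beside Setdb1, region 1 had 18.6, 25.6 and 36.7 CPM as the lowest, median and highest value in RM H3K9me2, against 32.8, 42.3 and 47.3 CPM in RM input. The groups overlapped, with 5 of 6 mice lower, and the log2 fold change was -0.57 ± 0.15 (SE, edgeR adjusted p = 0.00125). This region lies over Cers2, a ceramide synthase gene, and not over Setdb1 itself. None of the 7 Prdm2 regions passed in the RM, where they lay between -0.33 and 0.02. The one of smallest p, Prdm2 region 7 (chr4:143212000-143213399), had 9.98, 14.4 and 18.0 CPM as the lowest, median and highest value in RM H3K9me2, against 13.6, 15.9 and 23.6 CPM in RM input. Its groups overlapped, and its log2 fold change was -0.33 ± 0.22 (SE, edgeR adjusted p = 0.241).

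**Figure D1:**
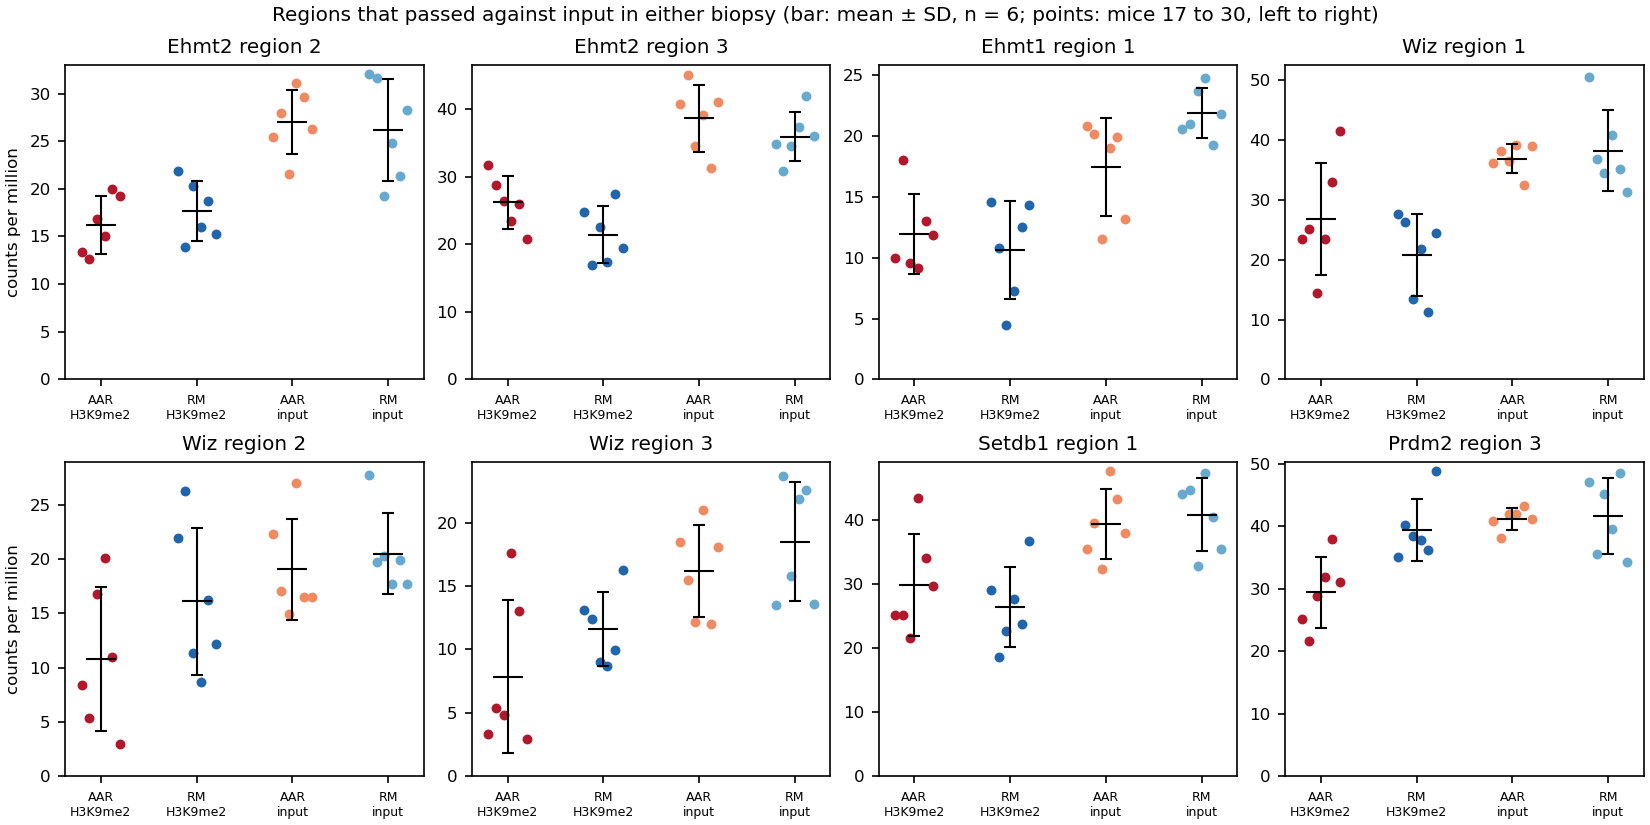
CPM of listed reads (y axes, each starting at 0) in the 8 regions that passed against input in either biopsy, with 1 point per library, 6 libraries a group, and bars for the mean ± SD. AAR is the area at risk and RM the remote myocardium; in the RM panels of Ehmt1 region 1, Ehmt2 region 3 and Wiz region 1 every H3K9me2 point lies below every input point, and Wiz regions 2 and 3 show the widest AAR H3K9me2 spread relative to their mean.

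Both biopsies called 3 of these regions, Ehmt2 regions 2 and 3 and Wiz region 3. The AAR alone called 2 more and the RM alone 3 more, 8 regions in all. Of the 40333 regions tested in both biopsies, 10.4% were lower in both, 1.88% in the AAR alone and 9.52% in the RM alone. A call in one biopsy does not by itself differ from the other biopsy, and the difference was tested directly as described further on.

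**Figure D2:**
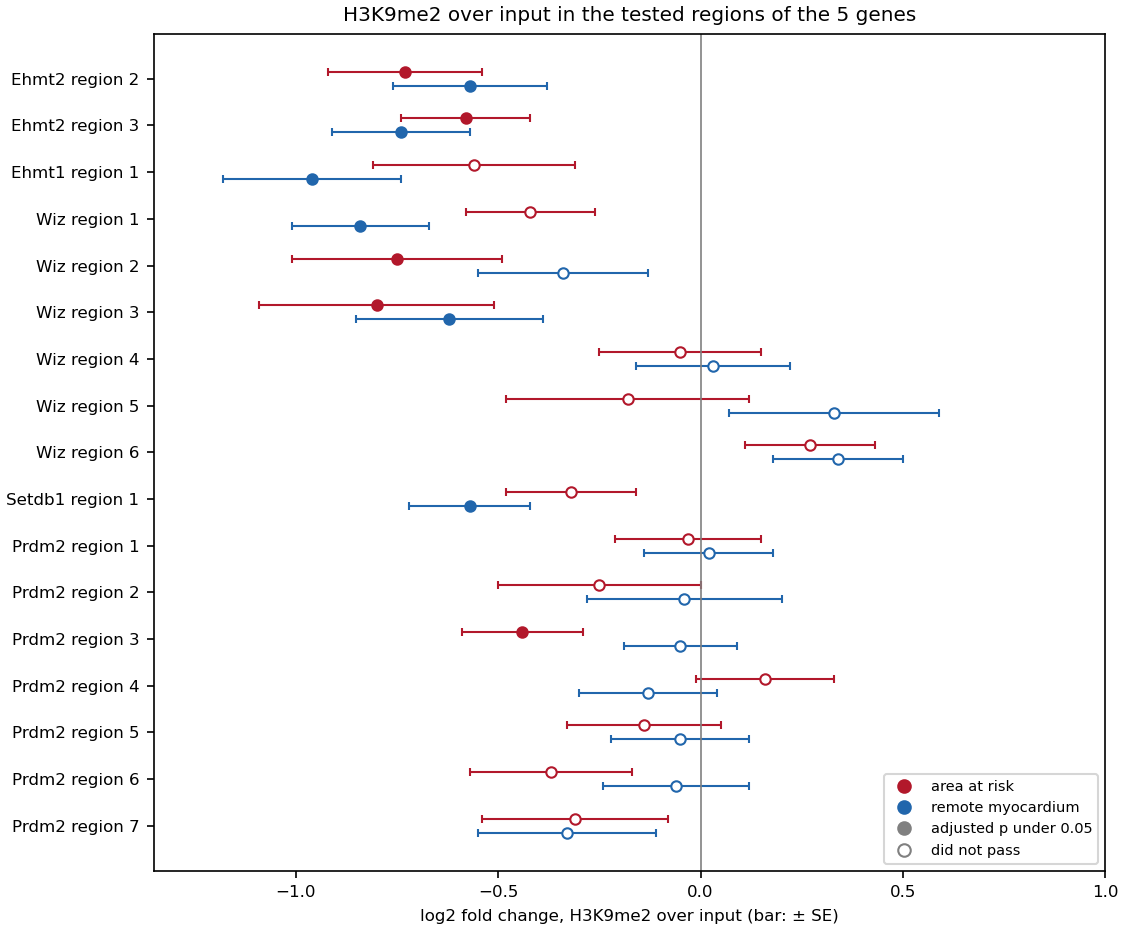
Log2 fold change of H3K9me2 over input (x axis, bars ± SE) for each of the 17 tested regions, area at risk above remote myocardium in each row, with filled symbols for an edgeR adjusted p under 0.05. All filled symbols lie left of 0, in Ehmt2, Ehmt1, Wiz, Setdb1 and Prdm2, and Wiz region 6 lies right of 0 in both biopsies, at 0.27 (area at risk) and 0.34 (remote myocardium).

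Levels were then summed over the regions of each gene and divided by the listed length, so that genes could be set side by side. In AAR H3K9me2, Wiz averaged 7.98 ± 0.493 CPM per kb and Prdm2 7.97 ± 0.671 (SD, n = 6 each), which did not differ beyond their spread. Ehmt1 averaged 6.64 ± 1.84 CPM per kb, Setdb1 5.45 ± 1.52 and Ehmt2 4.69 ± 0.388, each within the spread of its neighbour in that order. In RM H3K9me2 the order was Prdm2 at 8.93 ± 0.501 CPM per kb, Wiz at 8.12 ± 1.16, Ehmt1 at 5.92 ± 2.24, Setdb1 at 4.98 ± 1.24 and Ehmt2 at 4.23 ± 0.698. RM input averaged 9.47 CPM per kb in Prdm2, 9.51 in Wiz, 12.2 in Ehmt1, 7.68 in Setdb1 and 6.88 in Ehmt2. AAR input averaged 9.22, 9.52, 9.68, 7.73 and 7.17 CPM per kb in the same genes. Neither order is therefore one of H3K9me2 over input. The Ehmt2 values include region 1 over Zbtb12, which did not pass the filter and held 0.875 CPM per kb in AAR H3K9me2 and 1.06 in AAR input. Ehmt2 regions 2 and 3 averaged 6.23 and 6.55 CPM per kb in AAR H3K9me2, against 10.4 and 9.66 in AAR input. The Setdb1 sum likewise includes region 2, which did not pass the filter and held 1.26 CPM per kb in AAR H3K9me2. Setdb1 region 1 alone averaged 6.78 CPM per kb in AAR H3K9me2, against 8.95 in AAR input.

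The summed counts were tested over all genes with a listed region. In the AAR 1 of 5 genes, Ehmt2, was lower in H3K9me2 than in input, where 21.0% of all 17658 tested genes were. Summed Ehmt2 had 40.0, 45.1 and 50.0 CPM as the lowest, median and highest value in AAR H3K9me2, against 57.4, 69.2 and 78.5 CPM in AAR input. The groups did not overlap, and the log2 fold change was -0.51 ± 0.12 (SE, edgeR adjusted p = 8.28e-04). In the RM 3 of 5 genes were lower, where 26.9% of all 17622 tested genes were. They were Ehmt2 at -0.57 ± 0.12 (SE, edgeR adjusted p = 3.44e-05), Ehmt1 at -0.84 ± 0.22 (adjusted p = 7.79e-04) and Setdb1 at -0.45 ± 0.15 (adjusted p = 0.00665). Ehmt1 has 1 listed region, so its sum holds the counts of Ehmt1 region 1 and is not a second result. The fit over genes has its own scaling, and with library totals only the Ehmt1 sum was at -0.96 in the RM. The Setdb1 sum rests on region 1 over Cers2, which gave 26.4 of its 28.9 CPM in RM H3K9me2, and Setdb1 was not testable without that flank. Summed Ehmt2 had 32.5, 41.3 and 48.7 CPM as the lowest, median and highest value in RM H3K9me2, against 57.6, 67.7 and 70.2 CPM in RM input, again with no overlap.

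Wiz and Prdm2 did not pass as sums. Summed Wiz was at -0.14 ± 0.08 in the AAR and -0.09 ± 0.08 in the RM (SE), and summed Prdm2 at -0.09 ± 0.08 and 0.04 ± 0.07. The counts of genes depended on scaling: with library totals alone the median gene moved to -0.09 in the AAR and -0.10 in the RM, and 4 of the 5 genes passed in each biopsy. With that scaling 7528 of all 17658 tested genes passed in either direction in the AAR. Of those calls 66.2% were lower, against 49.6% of the calls in the main fit. In the RM 10017 of 17622 genes passed, and 62.6% of those calls were lower, against 48.7%. The same scaling put summed Prdm2 in the RM at -0.08. Summed Setdb1 in the AAR, at -0.31 (edgeR adjusted p = 0.0921), passed with the mouse as a block (-0.35, adjusted p = 0.0445) and without mouse 23 (-0.45, adjusted p = 0.0278), which made 2 genes each time. Summed Wiz passed when the upstream region 6 was left out, at -0.31 in the AAR (edgeR adjusted p = 0.0114) and -0.25 in the RM (adjusted p = 0.0190).

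**Figure D3:**
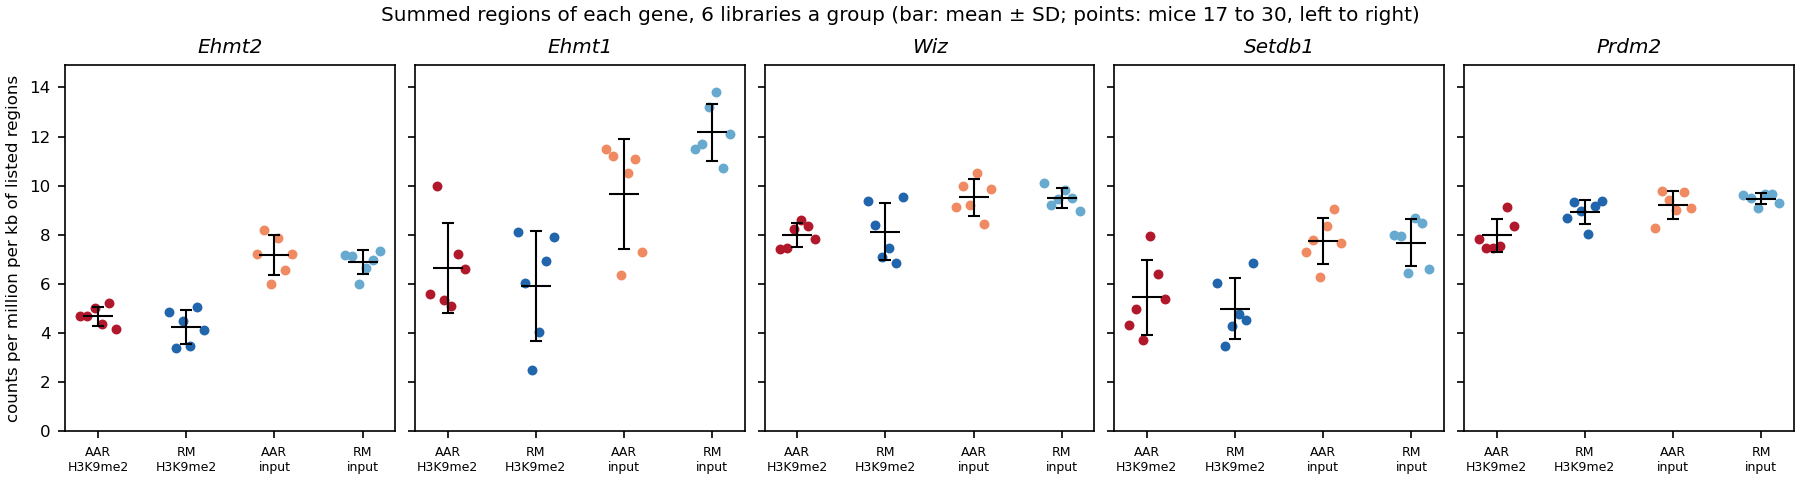
CPM per kb of listed regions (shared y axis starting at 0) for the 5 genes with a listed region, with 1 point per library, 6 libraries a group, and bars for the mean ± SD. Ehmt2 H3K9me2 lies below its input without overlap in both biopsies, at means of 4.69 against 7.17 (area at risk) and 4.23 against 6.88 (remote myocardium).

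The comparison at the centre of the design set H3K9me2 in the AAR against H3K9me2 in the RM of the same hearts. Only 11 of the 19 regions held enough reads in these shallower libraries to pass the filter, and Ehmt1 had none among them. In edgeR's quasi-likelihood test 0 of 11 regions passed, as did 0% of all 31526 tested regions, of which 1261, or 4.00%, had an unadjusted p under 0.05. The smallest adjusted p over all regions was 0.816, and DESeq2 called 0 of the 11 as well. The 11 regions lay between -0.39 and 0.38 on the log2 scale, with a median SE of 0.21.

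Prdm2 region 3 was the only one of the 11 with an unadjusted p under 0.05. It had 21.6, 30.0 and 38.0 CPM as the lowest, median and highest value in AAR H3K9me2, against 35.0, 38.1 and 48.9 CPM in RM H3K9me2. The groups overlapped, 5 of 6 mice were lower in the AAR, and the log2 fold change was -0.39 ± 0.18 (SE, edgeR adjusted p = 0.999). At the other end, Wiz region 1 had 14.4, 24.3 and 41.5 CPM as the lowest, median and highest value in AAR H3K9me2, against 11.2, 23.1 and 27.7 CPM in RM H3K9me2. Its groups overlapped, with 4 of 6 mice higher in the AAR, and its log2 fold change was 0.38 ± 0.22 (SE, edgeR adjusted p = 0.999), or 0.16 without mouse 27.

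Ehmt2 and Setdb1 also did not pass between biopsies. Ehmt2 region 3 had 20.8, 26.2 and 31.8 CPM as the lowest, median and highest value in AAR H3K9me2, against 17.0, 21.0 and 27.4 CPM in RM H3K9me2, with 5 of 6 mice higher in the AAR. The groups overlapped, and the log2 fold change was 0.26 ± 0.21 (SE, edgeR adjusted p = 0.999). Setdb1 region 1 had 21.6, 27.4 and 43.5 CPM as the lowest, median and highest value in AAR H3K9me2, against 18.6, 25.6 and 36.7 CPM in RM H3K9me2, and 3 of 6 mice were higher. Its log2 fold change was 0.23 ± 0.19 (SE, edgeR adjusted p = 0.999), with 0.06 without mouse 23 and 0.41 without mouse 30. Without the filter, Ehmt1 region 1 was at 0.06 ± 0.30, Wiz region 2 at -0.46 ± 0.29 and Wiz region 3 at -0.32 ± 0.32 (SE), none of which passed.

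Input DNA was compared between biopsies to see whether background reads differed. Here 0 of 17 regions passed, as did 0% of the 42603 tested regions, of which 1158 had an unadjusted p under 0.05. The 17 regions lay between -0.34 in Ehmt1 region 1 and 0.47 in Wiz region 5. Ehmt1 region 1 averaged 17.4 ± 4.02 CPM in AAR input and 21.9 ± 2.06 CPM in RM input (SD, n = 6 each), a log2 fold change of -0.34 ± 0.16 (SE, edgeR adjusted p = 1.000). It was the only one of the 17 with an unadjusted p under 0.05, and the region passed against input in the RM, where its input was the higher of the pair; the part of the input in that call was not tested.

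Whether H3K9me2 over input itself differed between biopsies was tested with an interaction term over all 24 libraries. Of 17 regions 0 passed, as did 0% of the 42445 tested regions, of which 1748 had an unadjusted p under 0.05. The largest of the members' differences were -0.50 ± 0.40 in Wiz region 5, 0.43 ± 0.24 in Wiz region 1 and 0.41 ± 0.34 in Ehmt1 region 1 (log2, SE). Prdm2 region 3, which passed against input in the AAR and not in the RM, differed by -0.37 ± 0.20 (SE, edgeR adjusted p = 1.000). No difference between biopsies was detected in the regions called in one of them, and the SEs above give the precision of these differences.

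**Figure D4:**
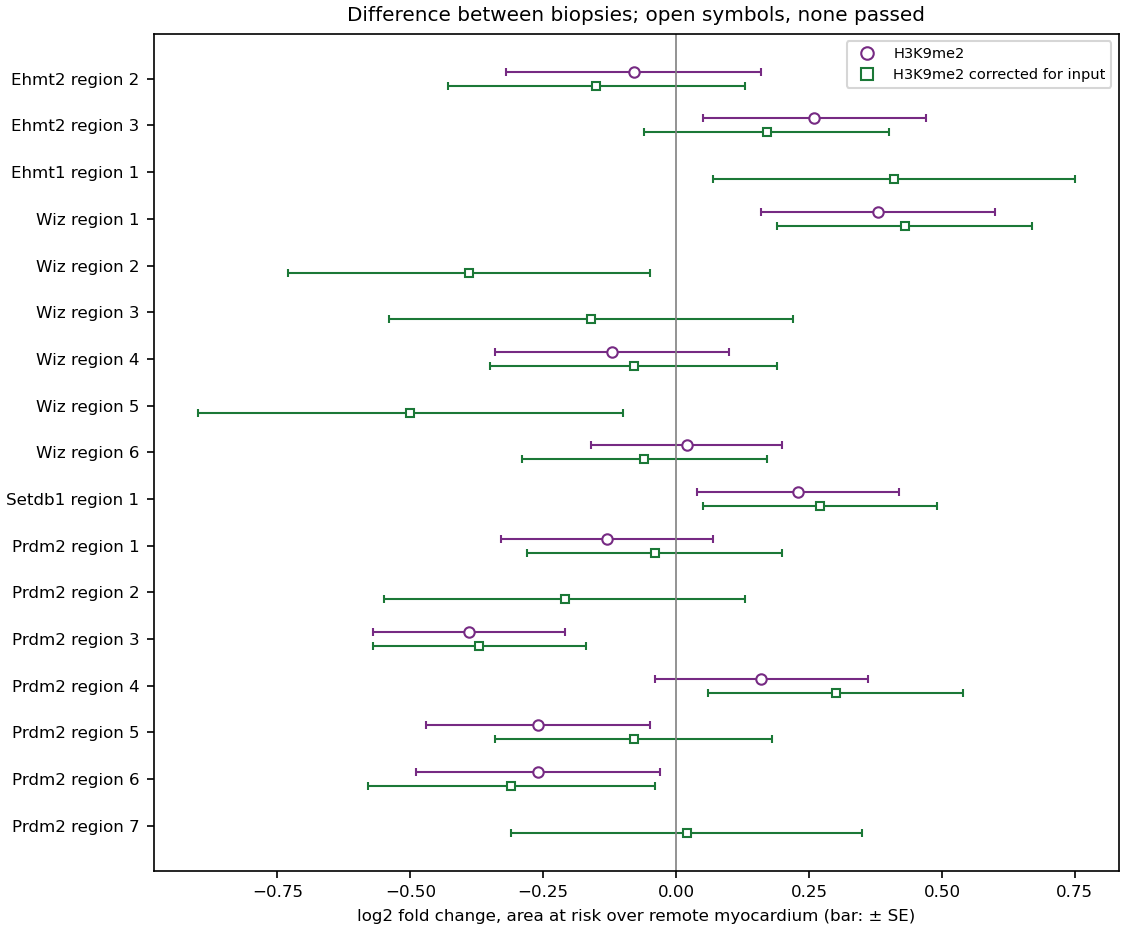
Log2 fold change of the area at risk over the remote myocardium (x axis, bars ± SE) in H3K9me2, for the 11 tested regions (circles), and in H3K9me2 corrected for input by the interaction term, for 17 regions (squares). All symbols are open because none passed; H3K9me2 values run between -0.39 in Prdm2 region 3 and 0.38 in Wiz region 1.

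As sums over regions the genes did not pass between biopsies either. None of the 4 genes tested in H3K9me2 passed, none of the 5 tested in input and none of the 5 in the interaction, and over all tested genes the shares called were 0%, 0% and 0%. Summed Prdm2 had 139, 143 and 170 CPM as the lowest, median and highest value in AAR H3K9me2, against 150, 169 and 174 CPM in RM H3K9me2. It was lower in the AAR in 6 of 6 mice with overlapping groups, at a log2 fold change of -0.16 ± 0.09 (SE, edgeR adjusted p = 1.000). Summed Ehmt2 was at 0.13 ± 0.16, Setdb1 at 0.18 ± 0.19 and Wiz at -0.04 ± 0.10 (SE). Without 1 mouse, summed Setdb1 ran between 0.00 (mouse 23) and 0.33 (mouse 30), and summed Ehmt2 was at 0.07 without mouse 19.

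Other genes of H3K9 methylation were read from lists of known partners, enzymes and demethylases. The name of a list does not exclude other roles of its genes, such as methyltransferase activity. Against 12.3% lower and 11.4% higher over all regions in the AAR, and 19.9% lower and 20.6% higher in the RM, the lists gave these counts. Of the regions of partners and readers, 12 of 95 were lower and 3 higher than input in the AAR, with a median of 0.05, and 14 were lower and 14 higher of 95 in the RM, with a median of 0.02. The called regions of smallest p in each direction were as follows. Those lower than input were Mecom at -0.96 ± 0.18 in the AAR and -1.03 ± 0.18 in the RM, Dnmt3a, a DNA methyltransferase, at -0.95 ± 0.22 in the AAR, and a flank of Trim28, the corepressor that recruits Setdb1, at -1.09 ± 0.22 in the RM. Prdm16 regions were higher, at 0.56 ± 0.16 in the AAR and at 0.62 ± 0.14 and 0.67 ± 0.16 in the RM, as was a Cdyl2 region in the AAR at 0.52 ± 0.18.

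Among methyltransferases of other histone lysines, set against the same shares of 12.3% and 19.9% lower, 25 of 76 regions were lower in the AAR and 2 were higher, with a median of -0.38, and in the RM 41 of 75 were lower and 3 higher, with a median of -0.50. Setd1b, an H3K4 methyltransferase, reached -1.30 ± 0.18 and -1.29 ± 0.19 in the AAR and -1.66 ± 0.19 in the RM, and Kmt2d, another, -1.83 ± 0.18 in the RM. Higher regions lay in Smyd3, at 0.58 ± 0.21 in the AAR and 0.99 ± 0.20 and 0.66 ± 0.17 in the RM, and in Kmt5c at 0.40 ± 0.14 in the AAR. Of the regions of H3K9 demethylases, 8 of 38 were lower and 0 higher in the AAR, with a median of -0.26, and 15 of 39 were lower and 0 higher in the RM, with a median of -0.33. Kdm4b was at -0.80 ± 0.13 in the AAR and -0.86 ± 0.12 in the RM, Kdm7a at -1.38 ± 0.27 in the AAR and Jmjd1c at -1.70 ± 0.27 in the RM. All values in these lists are log2 fold changes of H3K9me2 over input with their SE, and each named region passed edgeR's test. The median of the 17 tested regions of the genes described here was -0.32 in the AAR and -0.13 in the RM. It lay between the medians of the list of partners and readers and of the methyltransferases of other histone lysines.

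Between the biopsies, 0 regions of these lists passed. The regions of cell type markers did not pass either, with 0 of 5 in cardiomyocyte, 0 of 7 in fibroblast, 0 of 21 in endothelial and 0 of 7 in leukocyte genes. Their median log2 fold changes in H3K9me2, AAR over RM, were 0.05, -0.15, 0.18 and 0.06. ChIP counts do not measure expression, so the cell makeup of the biopsies was not read from them.

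The genes whose summed profile over the 24 libraries was most like that of Ehmt2 were 6330537M06Rik, Sec14l1 and Rab3a, each with a Pearson r of 0.93 on log2(CPM + 1). For Ehmt1 they were Krtcap2 at 0.86 and Trim46 and Glis2 at 0.85. The points share the split between ChIP and input libraries and their depth, and 35.1% of 17848 genes had an r over 0.5 with Ehmt2 and 25.8% of 17850 with Ehmt1.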

How the data were processed

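The labels' protocols describe H3K9me2 ChIP on enzymatically digested, formaldehyde-crosslinked cardiac chromatin and paired-end libraries. The submitters' processing notes name mm10, Bowtie2 2.2.2, SICER 1.1 and edgeR. How regions were called or merged is not given in the sources used here. The authors deposited raw counts per region for 4 pairwise comparisons, with 12 count columns each, and their own log2 fold changes and p-values with FDR. In these, higher in H3K9me2 than in input is negative, and between biopsies higher in the AAR is negative. In the authors' deposited tables, 4 member regions in the AAR, 6 in the RM and 0 between biopsies or inputs had an FDR under 0.05, and all are among the calls given here. The call for Wiz region 2 in the AAR is not among theirs, where its FDR was 0.0531.

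The 7 genes, their regions and the gene lists were chosen with earlier results of these data known. The 4 tables were joined into 53386 rows of regions by 24 libraries, which include 77 duplicate rows. The duplicates stayed in the tests of regions and in the library totals, and only the gene sums left them out. Counts were tested with edgeR 4.0.16 in R 4.3.3 (TMM, filterByExpr, glmQLFit, glmQLFTest) on the 2 groups compared, over all regions, with Benjamini-Hochberg adjusted p-values at 0.05. The interaction was fitted over all 24 libraries. Gene values are sums over regions of all annotated genes, without duplicates. The scripts were tested on simulated data. CPM uses totals over listed regions, whose reads are part of a library, so the depth behind them is that of listed regions only; PCR reads without molecular identifiers are not independent molecules. The SE of a log2 fold change is its size divided by the square root of F. DESeq2 1.42.0 and other settings were tried as alternatives.

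The lowest, median and highest library values are given for the tested region of smallest p of each gene, against input and between H3K9me2 groups. For the other lists the called regions of smallest p against input are named in each direction. Replicates are separate mice, and the same mouse number in different groups is the same animal, so the numbers pair the libraries. Same-mouse deviations from the group means nevertheless correlated between -0.17 and 0.17 over regions. Between replicate pairs the chi-square per region lay between 1.02 and 2.00, where sampling noise alone gives 1, and every library was counted once.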

Additional observations from a re-analysis of the deposited data

Results flagged for a closer look

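Of 84 groups of 6 libraries examined for these genes, 5 held a library far from the other 5, and chance marks about 1 group in 20. In the AAR H3K9me2 libraries, Wiz region 4 was highest in mouse 22 at 31.2 CPM, with the next at 21.7 CPM, and Prdm2 region 6 was highest in mouse 17 at 28.4 CPM, with the next at 19.2 CPM. In the RM H3K9me2 libraries, Wiz region 5 was lowest in mouse 22 at 4.51 CPM, with the next at 11.2 CPM. In the RM inputs, Wiz region 2 was highest in mouse 17 at 27.7 CPM, with the next at 20.3 CPM, and Prdm2 region 7 was highest in mouse 30 at 23.6 CPM, with the next at 17.1 CPM.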

How the results depend on the processing

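The count of 5 regions lower than input in the AAR was 2 in DESeq2 and 2 at an FDR of 0.01, and between 2 and 5 without 1 mouse. It was 6 with the mouse as a replicate block and in the fit over all 24 libraries, and the count of 6 in the RM stayed 6 with the block and ran between 4 and 6 without 1 mouse. Both tested Ehmt2 regions in the AAR, and Ehmt1 region 1, Ehmt2 region 3, Wiz region 1 and Setdb1 region 1 in the RM, passed under all 12 alternative fits. The count of 1 gene on summed counts in the AAR was 4 with library totals only, 2 with the replicate block, 2 without flanks and between 1 and 2 without 1 mouse, and the count of 3 in the RM was 3 or 4; without flanks its 3 genes held Wiz (-0.25) in place of Setdb1, which was not testable. The block changed no other call. Between biopsies, in inputs and in the interaction, 0 of the members' regions and 0 of the 5 genes passed under every alternative run; over the whole table, 1 region passed between H3K9me2 groups without mouse 19 and 1 gene between inputs without mouse 23. Signs changed in values near 0 that did not pass. Setdb1 region 1 between inputs was -0.02, and between -0.05 and 0.03 without 1 mouse, above 0 without mouse 17 (0.03) or 19 (0.01). Summed Prdm2 over input in the RM was 0.04, and -0.08 with library totals only. Summed Wiz between H3K9me2 groups was -0.04, and between -0.10 and 0.03 without 1 mouse, above 0 without mouse 17 (0.02) or 30 (0.03); between inputs it was 0.01, and -0.01 without mouse 19, 23 or 30 and -0.00 without flanks; in the interaction it was -0.04, and between -0.14 and 0.05 without 1 mouse. Summed Setdb1 between inputs was 0.03, and between -0.00 and 0.06 without 1 mouse, and in the interaction 0.16, and between -0.04 and 0.35 without 1 mouse. Over all regions the AAR called 9685 against input, and 5066 at an FDR of 0.01; over all genes it called 7477, and 4963. The low read counts limit the regions near 10 CPM most.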
